A study of Mus musculus with 12 samples.

Results

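The genes described here mark the cells of blood vessels. They are 34 of the 22195 genes counted, taken from a list: 25 that mark endothelial cells (Pecam1, Cdh5, Kdr, Flt1, Flt4, Tek, Tie1, Eng, Vwf, Emcn, Esam, Cldn5, Robo4, Egfl7, Erg, Sox17, Sox18, Plvap, Ptprb, Nos3, Angpt2, Apln, Aplnr, Mmrn2 and Cd34) and 9 that mark mural cells (Rgs5, Pdgfrb, Cspg4, Acta2, Tagln, Myh11, Mcam, Notch3 and Cnn1). They were measured by sequencing RNA of whole skin tumours that YUMM 2.1 cells, a mouse melanoma line, formed under the skin of C57BL/6J mice with an intact immune system. Mice received isotype control antibody, anti-B7-H3, anti-PD1, or the combination of anti-B7-H3 with anti-PD1, and each of these 4 groups has 3 of the 12 libraries. Treatment began once tumours had grown to between 20 and 50 mm3. The same cell line and mouse strain stand behind every group, so the tumours differ by antibody only, as far as the labels say. B7-H3 and PD1 are immune checkpoint proteins, the first found on many tumour and stromal cells and the second on T cells. Antibody doses, the age of the mice, the time of collection and whether each library came from a separate mouse are not given in the sources used here, so p-values measure only the spread between these libraries, which may be technical.

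Blood vessels are tubes of endothelial cells wrapped in mural cells, which are pericytes on capillaries and smooth muscle cells on larger vessels. Endothelial cells grow in answer to VEGF ligands, which bind the receptors of Flt1, Kdr and Flt4, while angiopoietins act through the receptor of Tek and set how firmly mural cells are held. Tumour vessels are known for their irregular, leaky walls and for loosely attached pericytes. Several genes on each list have other known sources as well: Pecam1 and Vwf in platelets, Pecam1 and Eng in leukocytes, Flt1 in monocytes, Cd34 in blood progenitors and fibroblasts, Pdgfrb, Acta2 and Tagln in fibroblasts, and Cspg4 and Mcam in melanoma cells. In a bulk tumour, fewer vessel cells and less RNA per vessel cell cannot be told apart.

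The libraries differed in how many of their reads could speak of vessel genes at all. Totals were lowest with anti-B7-H3, from 3593110 to 3937727 reads, then the combination, from 4409772 to 5014931, then anti-PD1, from 8099713 to 10527704, and highest in isotype control, from 15585622 to 21298142. A set of 12 satellite-like genes took 0.145% ± 0.068 (SD, n = 3), 31.4% ± 2.22, 72.0% ± 2.99 and 92.5% ± 1.93 of those reads in the same order. Chemoreceptor genes, which code for receptors of smell and taste and are not expected to be transcribed in tumours, gave a background per kilobase of coding sequence. Spread over all genes, that background amounted, again in this order, to 0.0868% ± 0.0109, 0.781% ± 0.0123, 6.92% ± 0.467 and 18.3% ± 0.428 of the remaining reads.

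Against this background the vessel genes stood very differently in the 4 groups. In isotype control libraries, 24 of 25 endothelial and 6 of 9 mural members had fewer than 3 times the reads that background alone would give, here called near background. In anti-PD1 libraries this held for 13 endothelial and 3 mural members. All 34 members were above that level in anti-B7-H3 and in combination libraries. Eng, the endothelial coreceptor for TGF-beta ligands, was the endothelial member above it in isotype control, with 184 reads summed over the group against 44.3 expected from background. Kdr, the main VEGF receptor of blood endothelium, had 81 reads there against 91.6 expected. The comparison in which every member was above background, combination against anti-B7-H3, is therefore given first, an order chosen after these values were seen. Counts of vessel genes in comparisons with isotype control or anti-PD1 are given with the background left in and with it subtracted. After subtraction the filter on low counts and the library scaling were estimated anew. Log2 differences after subtraction therefore differ from the others in scaling as well as in background.

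**Figure D1:**
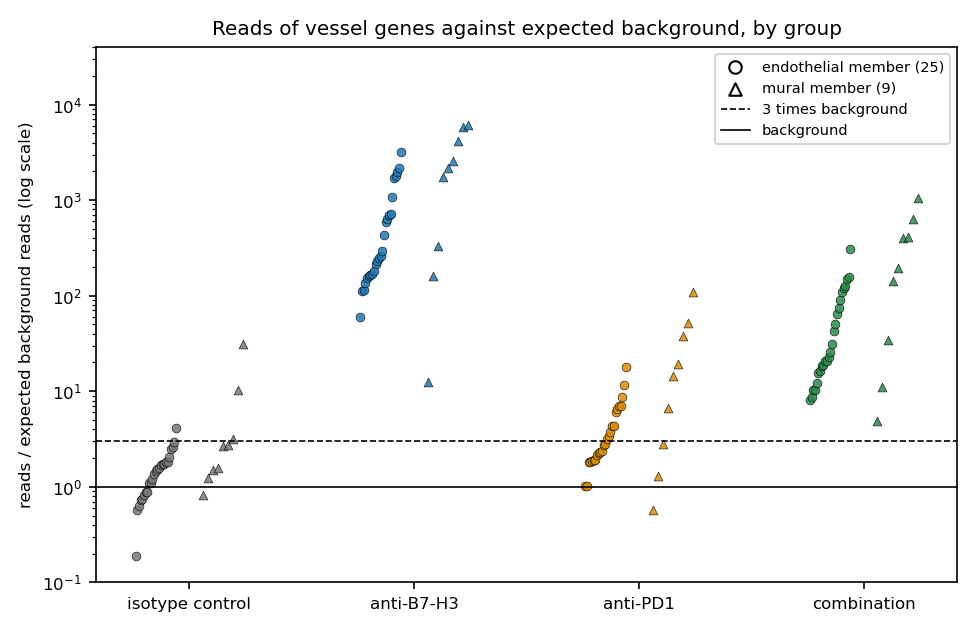
Reads of each vessel gene, summed over the 3 libraries of a group, divided by the reads expected from background (vertical axis, log scale), by group; circles are the 25 endothelial and triangles the 9 mural members, ordered by value. The solid line is background and the dashed line 3 times background: 24 endothelial members lie under the dashed line in isotype control and 13 in anti-PD1, and none in the other groups.

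In tumours given both antibodies, the endothelial genes called changed against anti-B7-H3 alone were all lower. Cd34, Pecam1, Plvap, Vwf, Flt1, Eng and Ptprb fell, and 18 of 25 members, Cdh5 and Kdr among them, did not pass the test. Cd34, a sialomucin of the vessel surface (GRCm38, chr1:194938819-194961279, plus strand), fell 2.04-fold, and Pecam1, the adhesion molecule CD31 of endothelial junctions (chr11:106654217-106750628, minus strand), fell 1.64-fold. The count was 0 higher and 7 lower of 25 endothelial members tested (edgeR quasi-likelihood test, Benjamini-Hochberg adjusted p under 0.05 over 13478 genes), where 19.8% of all genes tested were called higher and 19.1% lower. The median log2 difference was -0.32 over the endothelial members and 0.01 over all genes tested.

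Levels below are read counts scaled to a common library total with TMM factors, written CPM. Pecam1 stood at 34.8, 34.6 and 34.4 CPM in the anti-B7-H3 libraries and at 20.4, 20.0 and 22.6 in the combination libraries, a log2 difference of -0.72 ± 0.08 (SE, n = 3 against 3) with an edgeR adjusted p of 1.85e-11. The 3 combination values lie together, far below the 3 anti-B7-H3 values. Cd34 stood at 16.9, 17.4 and 16.4 CPM against 8.24, 8.59 and 7.96, a log2 difference of -1.03 ± 0.12 with an edgeR adjusted p of 1.32e-11. Plvap, which forms the diaphragms of fenestrated endothelium, stood at 19.2, 14.96 and 18.9 CPM in anti-B7-H3 and at 10.9, 11.2 and 10.9 in combination libraries, a log2 difference of -0.69 ± 0.11 with an edgeR adjusted p of 1.91e-07. In each of these 3 genes the groups did not overlap.

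The smaller falls were in abundant genes. Vwf, the clotting factor stored by endothelium and platelets, stood at 42.9, 42.1 and 42.1 CPM in anti-B7-H3 and at 32.9, 32.3 and 36.3 in combination libraries, a log2 difference of -0.32 ± 0.07 (edgeR adjusted p = 9.12e-05). Flt1, the VEGF receptor also found on monocytes, stood at 42.4, 47.4 and 39.8 CPM against 35.0, 35.2 and 34.04, a log2 difference of -0.31 ± 0.07 (edgeR adjusted p = 0.000207). Eng stood at 46.7, 45.8 and 46.4 CPM against 40.0, 37.9 and 39.2, a log2 difference of -0.24 ± 0.07 (edgeR adjusted p = 0.00223). Groups did not overlap in any of the 3. Ptprb, the endothelial phosphatase that restrains the receptor of Tek, stood at 9.06, 9.92 and 12.04 CPM against 8.24, 7.11 and 7.79. Its log2 difference was -0.42 ± 0.14 (edgeR adjusted p = 0.0134), and the call was lost without anti-B7-H3 replicate 3 or combination replicate 2 (adjusted p up to 0.185) and after background subtraction (adjusted p = 0.468).

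Cdh5, the VE-cadherin that ties endothelial cells to each other, gave no call. It stood at 19.7, 15.9 and 18.3 CPM in anti-B7-H3 and at 15.3, 17.97 and 19.8 in combination libraries, and the groups overlapped, with a log2 difference of -0.02 ± 0.10 (edgeR adjusted p = 0.889). Of the growth factor receptors, the log2 difference was -0.01 ± 0.17 for Kdr, -0.11 ± 0.15 for Tie1, -0.53 ± 0.26 for Tek and 0.24 ± 0.27 for the lymphatic receptor Flt4, none of which passed the test. Angpt2, the ligand that loosens mural contact, had 0.30 ± 0.14 (edgeR adjusted p = 0.0937) and passed where only these groups were fitted or combination replicate 2 was left out. The transcription factors Erg, Sox17 and Sox18 had log2 differences of -0.58 ± 0.37, -0.13 ± 0.37 and -0.19 ± 0.28, so that their errors span a wide range. Apln, a peptide of sprouting tip cells, rested on 39 reads in anti-B7-H3 and 26 in combination libraries and had -0.39 ± 0.44. Nos3, the endothelial nitric oxide synthase, had -0.36 ± 0.23. The endothelial members not called ran from -0.62 in Aplnr, the apelin receptor, to 0.32 in Robo4, a guidance receptor that steadies endothelium.

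**Figure D2:**
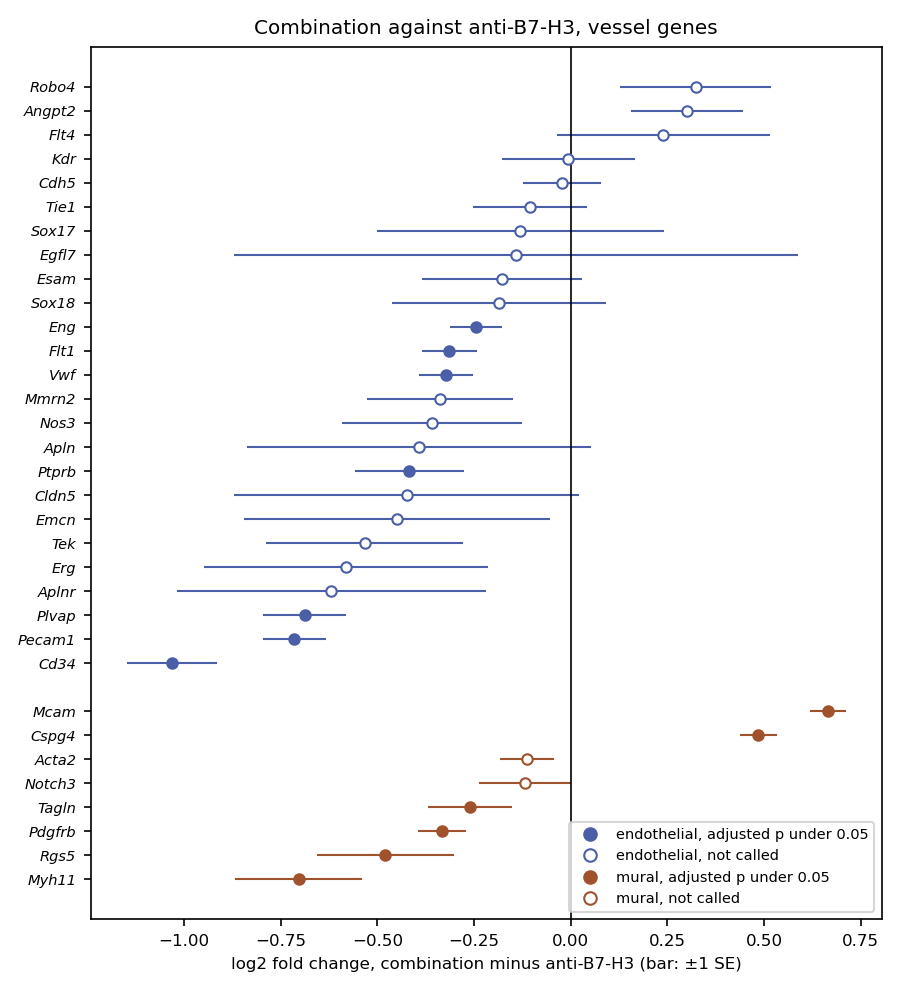
Log2 fold change, combination minus anti-B7-H3, for 33 vessel genes (horizontal axis, bars ±1 SE), endothelial members above and mural members below, filled where the edgeR adjusted p was under 0.05. The 7 filled endothelial points all lie left of 0, from Eng at -0.24 to Cd34 at -1.03, while the mural members Cspg4 and Mcam lie right of it.

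The promoters of Cd34 and Robo4, which are at the lower and the upper end of these differences, are shown because both hold an exact copy of CAGGAAG, a core of the ETS family sites that Erg and related endothelial factors bind. The windows are 250 bases upstream of a RefSeq start on GRCm38.p6, plus strand, at chr1:194938571-194938820 for Cd34 and chr9:37401722-37401971 for Robo4, with the match in capitals. It begins 142 bases before the start of Cd34, where it reads as its reverse complement, and 50 bases before that of Robo4.
Cd34: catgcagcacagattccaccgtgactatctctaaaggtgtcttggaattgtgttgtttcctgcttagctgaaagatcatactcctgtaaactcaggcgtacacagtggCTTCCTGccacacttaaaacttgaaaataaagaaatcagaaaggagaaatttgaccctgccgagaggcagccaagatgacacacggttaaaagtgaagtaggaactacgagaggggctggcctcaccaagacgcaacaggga
Robo4: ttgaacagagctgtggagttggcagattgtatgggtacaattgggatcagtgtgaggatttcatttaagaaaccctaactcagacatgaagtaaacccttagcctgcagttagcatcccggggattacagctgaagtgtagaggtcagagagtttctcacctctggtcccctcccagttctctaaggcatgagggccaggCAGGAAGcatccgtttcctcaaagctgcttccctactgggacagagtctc

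A window was found for 13 of the 25 endothelial and 6 of the 9 mural genes. CAGGAAG, searched on both strands, stood in 7 of 17 endothelial windows (41.2%), those of Apln, Cd34, Egfl7, Emcn, Erg and Robo4, and in 0 of 6 mural windows. It stood in 10.8% of the 32851 windows of all genes. The CArG box of smooth muscle genes was searched on both strands only as CC, 6 bases of A or T, then GG. That exact pattern stood in 0 of 17 endothelial and 0 of 6 mural windows and in 1.47% of all windows. Near copies, such as ccctatatgg in the Acta2 window, were not counted. A match is a run of letters and not a shown binding site.

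The mural genes split in the same comparison. Mcam and Cspg4 rose, Myh11, Rgs5, Pdgfrb and Tagln fell, and Acta2 and Notch3 did not pass the test. That makes 2 higher and 4 lower of 8 members tested, where all genes had 19.8% and 19.1%. The median log2 difference over the 8 was -0.19. Cnn1, a smooth muscle calponin, did not pass the filter on low counts: it had 1 read in each anti-B7-H3 library and 4, 2 and 3 reads in the combination libraries, a ratio of 3.44 with a 95% counting interval from 0.859 to 19.8.

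Mcam, the adhesion molecule CD146 of pericytes, endothelium and melanoma cells (chr9:44134469-44142727, plus strand), stood at 84.8, 78.6 and 81.4 CPM in anti-B7-H3 and at 130.5, 127.2 and 130.5 in combination libraries, a log2 difference of 0.66 ± 0.05 (edgeR adjusted p = 3.24e-20). Cspg4, the proteoglycan NG2 of pericytes and melanoma cells, stood at 137.1, 137.9 and 130.3 CPM against 188.0, 183.4 and 195.8, a log2 difference of 0.49 ± 0.05 (edgeR adjusted p = 8.00e-14). In both genes every combination library lay above every anti-B7-H3 library. Pdgfrb, the receptor through which PDGF-B recruits pericytes, stood at 53.8, 52.8 and 53.1 CPM against 41.9, 43.9 and 41.2, a log2 difference of -0.33 ± 0.06 (edgeR adjusted p = 8.64e-06). Myh11, the myosin of contractile smooth muscle, stood at 7.49, 7.44 and 6.38 CPM against 4.82, 4.64 and 3.69, a log2 difference of -0.70 ± 0.17 (edgeR adjusted p = 0.000333). In these genes the order was the other way round, again without overlap.

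Acta2, the smooth muscle actin (chr19:34241090-34255590, minus strand), stood at 47.0, 45.5 and 42.7 CPM in anti-B7-H3 and at 44.5, 41.2 and 39.4 in combination libraries, which overlapped, with a log2 difference of -0.11 ± 0.07 (edgeR adjusted p = 0.197). Notch3, the Notch receptor of mural cells, had -0.12 ± 0.12 (edgeR adjusted p = 0.466). Rgs5, a pericyte regulator of G protein signals, had -0.48 ± 0.18 (edgeR adjusted p = 0.0249), a call lost with DESeq2's Wald test, after background subtraction, or without anti-B7-H3 replicate 3, combination replicate 2 or combination replicate 3 (adjusted p up to 0.252). Tagln, a calponin-related protein of smooth muscle, had -0.26 ± 0.11 (edgeR adjusted p = 0.0497), and its call was lost in 6 alternative fits and on leaving out any of 5 libraries (adjusted p up to 0.213).

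Markers of other cells moved in the same comparison, and their part in these differences was not tested. All 8 fibroblast, 7 macrophage and 3 pan-leukocyte markers fell, with summed levels of 6547 to 6691, 2289 to 2317 and 244.4 to 257.7 CPM in anti-B7-H3 against 4245 to 4303, 1118 to 1134 and 124.9 to 131.1 in combination libraries. Platelet markers summed to 20.4 to 22.7 against 12.9 to 13.9 CPM, with 1 of 2 tested lower. Melanocyte and melanoma markers summed to 25.5 to 28.8 against 44.4 to 46.6 CPM, with 2 higher and 1 lower of 4 tested. Skeletal muscle markers were 5 of 5 higher, at 0.225 to 0.579 against 81.2 to 86.5 CPM, and the 4 adipocyte markers were all lower, at 10.3 to 12.04 against 3.15 to 4.43 CPM. The 25 endothelial genes summed to 277.6 to 283.3 CPM in anti-B7-H3 and 217.0 to 228.6 in combination libraries, and the 9 mural genes to 353.7 to 371.6 and 433.0 to 447.0.

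Against anti-PD1 alone, tumours given both antibodies had 6 endothelial genes called higher and 4 called lower, with the background left in. The share called higher was close to that of all genes. Pecam1, Cdh5, Flt1, Eng, Angpt2 and Cd34 rose, with and without background subtraction. The count was 6 higher and 4 lower of 25, where 23.1% of all genes were called higher and 23.4% lower (46.5% either way), and 10 higher and 0 lower after subtraction, where all genes had 19.2% and 17%. The median log2 difference was 0.04 over the endothelial members and 0.00 over all genes. The 4 called lower, Erg, Sox17, Ptprb and Nos3, were not called after subtraction, and Erg, Ptprb and Nos3 were near background in anti-PD1 libraries.

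Pecam1 stood at 9.48, 10.6 and 10.4 CPM in anti-PD1 libraries, below all 3 combination values given above, with a log2 difference of 1.06 ± 0.11 (edgeR adjusted p = 5.47e-13). Angpt2 stood at 3.79, 4.65 and 4.74 CPM in anti-PD1 and at 8.43, 7.50 and 10.1 in combination libraries, 0.99 ± 0.17 on the log2 scale (edgeR adjusted p = 1.96e-06). Cdh5 stood at 9.60, 10.7 and 9.22 CPM in anti-PD1 libraries, 0.85 ± 0.12 on the log2 scale below the combination (edgeR adjusted p = 2.34e-08). None of these groups overlapped. Flt1 stood at 19.1, 20.2 and 20.4 CPM and Eng at 22.4, 26.6 and 21.6, with log2 differences of 0.80 ± 0.09 and 0.73 ± 0.08. Cd34 stood at 4.62, 6.03 and 5.66 CPM, with 0.60 ± 0.16 (edgeR adjusted p = 0.00105). Vwf, at 35.6, 31.2 and 32.1 CPM, and Plvap, at 11.1, 10.2 and 10.01 CPM, overlapped the combination libraries and gave no call, with log2 differences of 0.04 ± 0.08 and 0.07 ± 0.13.

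Of the 4 genes called lower, Nos3 stood at 4.50, 7.03 and 5.66 CPM in anti-PD1 and at 2.04, 2.17 and 3.04 in combination libraries. Erg, an ETS factor of endothelial identity, stood at 2.73, 3.39 and 1.45 CPM against 1.02, 1.09 and 0.656. Sox17, a factor of arterial endothelium, stood at 2.25, 2.39 and 1.98 CPM against 0.926, 0.790 and 1.48. The combination values were the lower ones throughout, without overlap. Their log2 differences were -1.22 ± 0.23, -1.46 ± 0.36 and -1.02 ± 0.36, and after subtraction -0.81 ± 0.33, -1.18 ± 0.52 and -0.85 ± 0.54, with edgeR adjusted p of 0.0565, 0.0789 and 0.232. Ptprb, at 9.36, 9.67 and 11.99 CPM in anti-PD1 libraries, had -0.41 ± 0.15 (edgeR adjusted p = 0.0212), which became 0.08 ± 0.47 after subtraction.

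**Figure D3:**
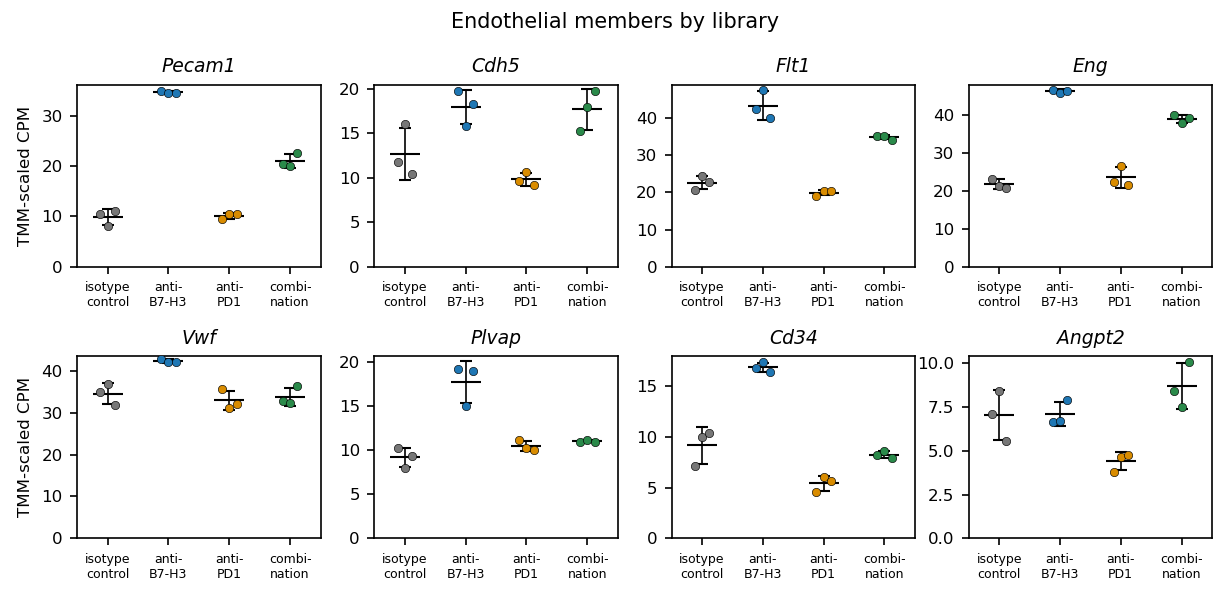
TMM-scaled CPM (vertical axes, from 0) of 8 endothelial members in the 12 libraries by group, with group mean and SD bars; Cd34 and Angpt2 were added to the 6 most abundant after their values were seen. Pecam1, Plvap and Cd34 are highest in the 3 anti-B7-H3 libraries, and Angpt2 is lower in the anti-PD1 than in the combination libraries.

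Of 8 mural genes tested, 4 were higher and 1 lower in the combination than in anti-PD1 alone, against the 23.1% and 23.4% of all genes. Rgs5, Pdgfrb, Acta2 and Tagln rose and Cspg4 fell, calls that were also made after background subtraction, and the median log2 difference over the 8 members was 0.32. Acta2 stood at 28.0, 23.1 and 24.5 CPM in anti-PD1 libraries and Tagln at 5.57, 5.78 and 9.09. Both lay below all 3 combination values, with log2 differences of 0.72 ± 0.08 (edgeR adjusted p = 9.66e-12) and 1.01 ± 0.14 (edgeR adjusted p = 7.91e-09). Rgs5 had 1.03 ± 0.24 and Pdgfrb, at 33.4, 29.6 and 33.2 CPM in anti-PD1 libraries, 0.40 ± 0.07. Cspg4 stood at 254.4, 237.3 and 250.3 CPM in anti-PD1, the highest of the 4 groups, and fell by 0.39 ± 0.05 on the log2 scale (edgeR adjusted p = 1.35e-10). Mcam, at 141.0, 136.1 and 133.6 CPM, gave no call with the background left in (-0.08 ± 0.05) and was called lower after subtraction (-0.29 ± 0.04). With scaling unchanged, its mean level beyond background was 135.6 CPM in anti-PD1 and 129.3 in combination libraries. Against anti-PD1, macrophage markers were 7 of 7 higher, at 376.4 to 398.7 CPM in anti-PD1, pan-leukocyte markers 3 of 3 higher at 43.9 to 49.1, fibroblast markers 3 of 8 higher at 3874 to 4110, and skeletal muscle markers 5 of 5 higher at 16.2 to 21.7. Melanocyte and melanoma markers were 3 of 4 lower, from a sum of 82.3 to 85.8 CPM in anti-PD1 to the 44.4 to 46.6 CPM of the combination. Their part in the mural and endothelial differences was not tested.

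Against isotype control, anti-B7-H3 tumours had 8 endothelial genes called higher and 11 called lower, with the background left in. The endothelial share called higher was close to that of all genes. Mural genes split evenly, with Acta2, Tagln, Rgs5 and Pdgfrb higher. Pecam1, Cdh5, Flt1, Eng, Vwf, Plvap, Apln and Cd34 were called higher with the background left in and also after subtraction. With it left in, the count was 8 higher and 11 lower of 25, where 30.8% of all genes were called higher and 33.3% lower (64.1% either way). After subtraction it was 16 higher and 1 lower, where all genes had 32.3% and 21.9%. Of the 16, 8 had isotype control reads at or below expected background, so their fitted values are no folds. They were Kdr, Flt4, Tek, Emcn, Cldn5, Nos3, Apln and Mmrn2. The median log2 difference over the endothelial members moved from -0.42 to 0.86, while that of all genes moved from -0.04 to 0.26.

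Pecam1 stood at 10.5, 8.0 and 11.1 CPM in isotype control, where its 84 reads compare with 48.5 expected from background, so its log2 difference of 1.79 ± 0.14 (edgeR adjusted p = 9.14e-19) became 2.20 ± 0.21 after subtraction. Eng stood at 23.2, 21.2 and 20.8 CPM and differed by 1.08 ± 0.11 (edgeR adjusted p = 1.84e-14), or 0.66 ± 0.12 after subtraction. Flt1 stood at 20.7, 24.4 and 22.7 CPM and differed by 0.94 ± 0.11, or 0.86 ± 0.13 after subtraction. Every anti-B7-H3 library was above every isotype control library in these genes. Plvap stood at 10.2, 8.0 and 9.29 CPM and Cd34 at 7.11, 10 and 10.4, with log2 differences of 0.94 ± 0.17 and 0.90 ± 0.17. Vwf stood at 34.9, 36.8 and 31.9 CPM (0.29 ± 0.10, edgeR adjusted p = 0.00547) and Cdh5 at 11.8, 16 and 10.4 CPM (0.52 ± 0.16, edgeR adjusted p = 0.00339). Cdh5 overlapped between the groups, and both calls were lost without isotype control replicate 3. The Vwf difference changed sign with scaling over genes well above background. Apln had 39 reads in anti-B7-H3 libraries against 1 in isotype control, a ratio of 8.65 with a 95% counting interval from 1.46 to 350.

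The 11 endothelial members called lower against isotype control were Kdr, Flt4, Tek, Esam, Robo4, Erg, Sox17, Sox18, Ptprb, Nos3 and Aplnr, each near background there. Flt4 shows the case most plainly: it stood at 9.27, 8.40 and 11.1 CPM in isotype control and at 1.87, 1.65 and 1.99 in anti-B7-H3 libraries. Its 81 isotype control reads compare with 92.8 expected from background, and its 70 anti-B7-H3 reads with 1.16. After subtraction 1 of the 11 was still called lower, Sox17, at 4.02, 8.40 and 2.97 CPM in isotype control against 1.12, 1.16 and 1.28 (-2.07 ± 0.37, or -1.77 ± 0.61 after subtraction, edgeR adjusted p = 0.0168). Kdr, Flt4, Tek and Nos3 were called higher then. Their subtracted isotype control reads are at or close to 0, so that fitted value depends on the constant edgeR adds to counts and is no fold.

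Acta2 rose most among the mural genes, from 9.27, 6.80 and 8.91 CPM in isotype control to the anti-B7-H3 values above, a log2 difference of 2.42 ± 0.14 (edgeR adjusted p = 3.41e-25), or 2.13 ± 0.17 after subtraction. Tagln, at 4.33, 3.60 and 3.34 CPM in isotype control, and Rgs5, at 2.47, 0.80 and 3.34 CPM, differed by 2.10 ± 0.22 and 1.63 ± 0.32. Pdgfrb stood at 23.5, 24.8 and 24.5 CPM and differed by 1.14 ± 0.10 (edgeR adjusted p = 8.10e-17). Each of these was called after subtraction as well, and no group overlapped. Cspg4, at 200.9, 174.4 and 209.1 CPM in isotype control, and Mcam, at 163.2, 148.0 and 161.6, fell by 0.53 ± 0.06 and 0.95 ± 0.06 on the log2 scale, and by 1.21 ± 0.05 and 1.73 ± 0.05 after subtraction. These are the mural genes with most reads beyond background in isotype control. With scaling unchanged, their mean levels beyond background there were 175.9 and 152.6 CPM, against 135.1 and 81.6 in anti-B7-H3 libraries. Myh11 and Notch3, near background there at 11.8, 12 and 15.97 and at 22.6, 29.2 and 33.8 CPM, were called lower with the background left in. After subtraction Myh11 was called higher and Notch3 was not called. Cnn1 had 3 reads over the anti-B7-H3 libraries against 3, 14 and 7 in the isotype control libraries, a ratio of 0.0277 with a 95% counting interval from 0.00534 to 0.0913.

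The mural count was 4 higher and 4 lower of 8, where all genes had 30.8% and 33.3%. After subtraction it was 5 and 2, where all genes had 32.3% and 21.9%. Myh11, called higher only after subtraction, had 111 isotype control reads against 134 expected from background. Beside them, all 8 fibroblast, 7 macrophage and 3 pan-leukocyte markers rose against isotype control, where they summed to 1762 to 2032, 258.1 to 281.5 and 28.8 to 37.4 CPM. Of 4 melanocyte and melanoma markers tested 3 were lower, from a sum of 89.1 to 104.8 CPM in isotype control. The part of these cells in the vessel gene differences was not tested.

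**Figure D4:**
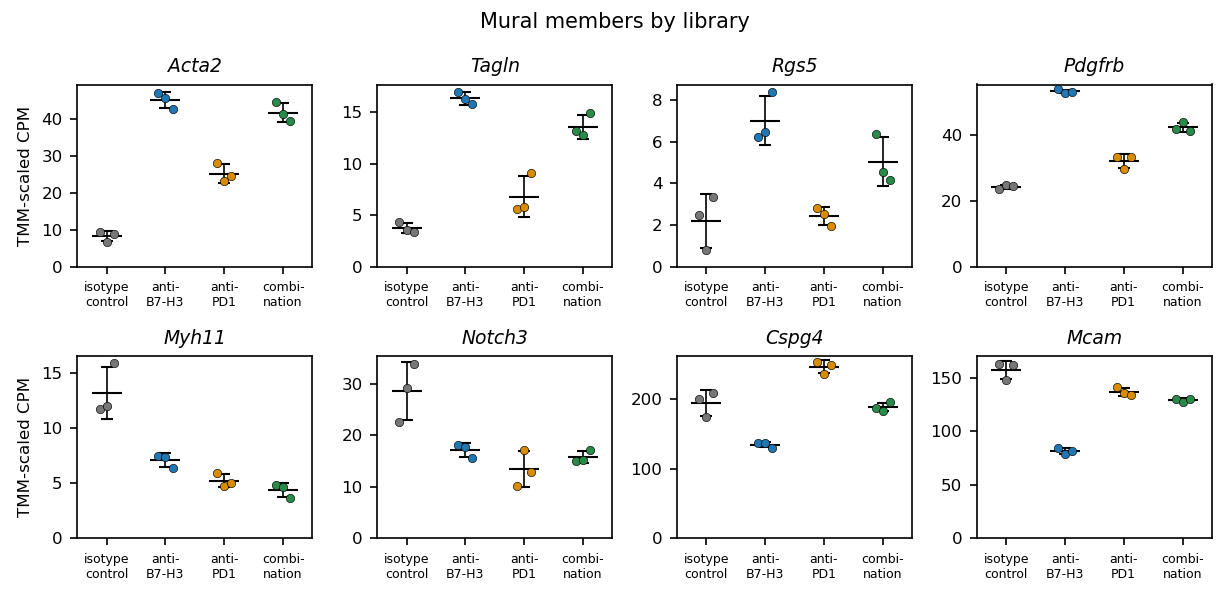
TMM-scaled CPM (vertical axes, from 0) of 8 mural members in the 12 libraries by group, with group mean and SD bars; Tagln and Rgs5 were added after their values were seen. Acta2 is lowest in isotype control, intermediate in anti-PD1 and highest in the groups given anti-B7-H3, while Mcam is lowest in the 3 anti-B7-H3 libraries.

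With anti-PD1 alone, no endothelial member was called higher than in isotype control and 14 of 25 were called lower, where 17.5% of all genes were called higher and 20.9% lower (38.3% either way). After subtraction 4 were called higher, Vwf by 0.53 ± 0.15 on the log2 scale and Kdr, Nos3 and Mmrn2 over isotype control reads at or close to 0, and 1 lower, where all genes had 14.7% and 9.22%. The gene called lower, Cd34, fell by 0.73 ± 0.21 on the log2 scale (edgeR adjusted p = 0.00424), or by 0.95 ± 0.27 after subtraction (adjusted p = 0.0111), and its groups did not overlap. With the background left in, none of the 6 most abundant endothelial genes was called, with log2 differences of 0.02 ± 0.18 for Pecam1, -0.36 ± 0.18 for Cdh5, 0.11 ± 0.12 for Eng, -0.17 ± 0.13 for Flt1, -0.07 ± 0.10 for Vwf and 0.18 ± 0.19 for Plvap. The median over the endothelial members was -0.68, or 0.18 after subtraction. The count of 14 fell to 8 without isotype control replicate 2.

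Of the mural genes, Acta2 and Pdgfrb rose under anti-PD1 with and without subtraction, Acta2 by 1.58 ± 0.16 (edgeR adjusted p = 3.63e-13) and Pdgfrb by 0.41 ± 0.11 (edgeR adjusted p = 0.00191) on the log2 scale. Mcam fell by 0.21 ± 0.05, or by 0.75 ± 0.05 after subtraction. Cspg4 and Tagln were called higher (0.34 ± 0.05 and 0.83 ± 0.27), and neither was called after subtraction, where Cspg4 had -0.11 ± 0.05. With scaling unchanged, the mean level of Cspg4 beyond background was 175.9 CPM in isotype control and 242.6 in anti-PD1 libraries. That of Mcam was 152.6 and 135.6 CPM. Myh11, at 5.93, 4.77 and 5.01 CPM in anti-PD1, and Notch3, at 10.2, 17.2 and 12.9 CPM, were called lower with the background left in, both being near background in both groups. The mural count was 4 higher and 3 lower of 8, where all genes had 17.5% and 20.9%. After subtraction it was 2 and 1, where all genes had 14.7% and 9.22%. In this comparison fibroblast markers were 4 of 8, macrophage markers 5 of 7 and pan-leukocyte markers 3 of 3 higher.

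In the combination against isotype control, Pecam1, Cdh5, Flt1 and Eng were higher and Erg and Sox17 lower with and without subtraction. The endothelial count was 5 higher and 13 lower, where 27.8% of all genes were called higher and 29.5% lower (57.3% either way), and 11 higher and 2 lower after subtraction, where all genes had 26.4% and 16.4%. Among the 11 were Kdr, Flt4 and Tek, whose isotype control reads were below expected background. Pecam1 differed by 1.08 ± 0.15 (edgeR adjusted p = 6.38e-09), Eng by 0.84 ± 0.11, Flt1 by 0.63 ± 0.11 and Cdh5 by 0.49 ± 0.16 on the log2 scale. The Cdh5 call was lost without isotype control replicate 1 or 3. Erg, at 4.95, 6.40 and 4.46 CPM in isotype control, differed by -2.51 ± 0.38, or -1.69 ± 0.67 after subtraction (adjusted p = 0.0441). Sox17 differed by -2.20 ± 0.38, or -2.0 ± 0.63 (adjusted p = 0.0121). Neither group pair overlapped, and Sox17 had 36 reads in the combination libraries in all. Apln had 26 reads against 1, a ratio of 6.62 with a 95% counting interval from 1.09 to 271.

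Among the mural genes in the combination, Rgs5, Pdgfrb, Acta2 and Tagln rose and Mcam fell, with and without subtraction. Acta2 differed by 2.30 ± 0.14 (edgeR adjusted p = 2.33e-23), Tagln by 1.84 ± 0.23, Rgs5 by 1.15 ± 0.34 and Pdgfrb by 0.80 ± 0.10 on the log2 scale. Mcam fell by 0.29 ± 0.05, or by 1.04 ± 0.05 after subtraction. Cspg4 had -0.05 ± 0.05 with the background left in and was called lower after subtraction with its new scaling (-0.70 ± 0.05). With scaling unchanged, mean levels beyond background were 175.9 CPM in isotype control and 188.6 in the combination for Cspg4. For Mcam they were 152.6 and 129.3 CPM. The count was 4 higher and 3 lower of 8, where all genes had 27.8% and 29.5%. After subtraction it was 5 and 2, where all genes had 26.4% and 16.4%. Beside them 7 of 7 macrophage, 3 of 3 pan-leukocyte, 5 of 8 fibroblast and 5 of 5 skeletal muscle markers were higher than in isotype control and 3 of 4 melanocyte and melanoma markers tested were lower. Their part in the vessel gene differences was not tested. The 3 comparisons with isotype control share their control libraries, so their values are set side by side and not correlated.

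The interaction asked whether the log2 effect of both antibodies together equals that of anti-B7-H3 plus that of anti-PD1. It was negative for Pecam1, Plvap, Pdgfrb, Acta2 and Tagln and positive for Mcam, with and without background subtraction. Pecam1, Plvap, Pdgfrb and Tagln were near background in isotype control, at 1.73, 2.61, 2.72 and 2.70 times it, and Acta2 was at 3.14 times. Acta2 had the largest size of the interaction terms named here, -1.70 ± 0.17 (edgeR adjusted p = 8.52e-13), which is the 1.58 of anti-PD1 alone and the 2.42 of anti-B7-H3 alone against 2.30 for both. Tagln had -1.09 ± 0.29, Plvap -0.86 ± 0.22, Pecam1 -0.74 ± 0.19, Pdgfrb -0.74 ± 0.12 and Mcam 0.87 ± 0.07 (edgeR adjusted p = 1.26e-16). The endothelial count was 4 higher and 3 lower of 25 and the mural count 2 and 3 of 8, where 19.1% of all genes were called higher and 17.3% lower. The 4 endothelial members called higher, Flt4, Robo4, Angpt2 and Ptprb, were not called after subtraction, nor was the mural member Notch3. All 7 macrophage, 3 pan-leukocyte and 7 of 8 fibroblast markers also had a negative interaction, and its relation to the vessel genes was not tested.

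The ratio of mural to endothelial reads does not depend on library scaling. It was 1.29 ± 0.033 (SD, n = 3) in anti-B7-H3, 1.99 ± 0.0509 in combination, 2.72 ± 0.179 in anti-PD1 and 1.85 ± 0.184 in isotype control libraries. By library it was 1.31, 1.31 and 1.25 in anti-B7-H3 and 2.048, 1.96 and 1.96 in combination, without overlap. With background subtracted it was 1.29, 2.02, 3.39 and 4.25 in the same order of groups, so isotype control moved from below the combination to the highest place. Cspg4 and Mcam took most mural reads in every group. Without them, an alternative chosen after the data were seen, the ratio was 0.519 ± 0.0144 in anti-B7-H3, 0.555 ± 0.0262 in combination, 0.494 ± 0.0298 in anti-PD1 and 0.354 ± 0.0312 in isotype control, background left in. The anti-B7-H3, combination and anti-PD1 libraries then lay within 0.46 and 0.581, and the lowest combination library, at 0.528, was level with the highest anti-B7-H3 library, at 0.528.

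**Figure D5:**
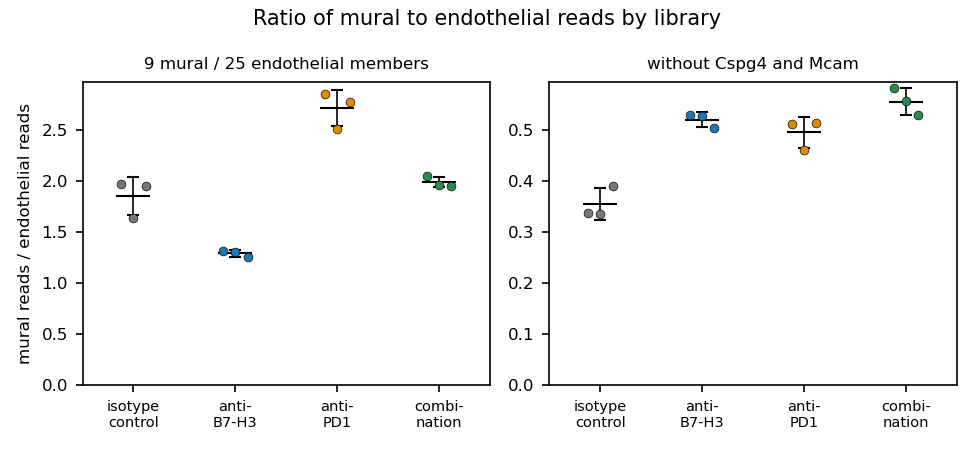
Ratio of mural to endothelial reads (vertical axes, from 0) in each library by group, with group mean and SD bars, for all 34 members on the left and without Cspg4 and Mcam on the right. On the left the anti-B7-H3 libraries are lowest, at 1.25 to 1.31, and on the right the isotype control libraries are.

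Per kilobase of coding length, the level of vessel genes in anti-B7-H3 libraries, where background was lowest, ran over more than 2 orders of magnitude. Acta2 and Mcam led, at 45.2 ± 2.20 and 43.8 ± 1.68 CPM per kilobase (SD, n = 3), and did not differ beyond their spread. Tagln followed at 31.3 ± 1.17, Eng at 23.7 ± 0.227 and Cspg4 at 19.3 ± 0.594. Pecam1 at 16.2 ± 0.092 and Pdgfrb at 16.1 ± 0.16 did not differ beyond their spread, nor did Plvap, Rgs5 and Flt1 at 13.4 ± 1.79, 13.1 ± 2.20 and 12.9 ± 1.16. Cdh5 stood at 7.97 ± 0.86 and Vwf, a long transcript, at 5.24 ± 0.0591. The receptors Kdr and Tek, at 1.25 ± 0.0681 and 0.830 ± 0.0553, were far below Flt1. Flt4, at 0.450 ± 0.0421, and Cnn1, at 0.0927 ± 0.0046, were the lowest. The defining markers of both cell types were thus present in these tumours, with Cnn1 at the level of 1 read in each library.

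Other genes of vessel biology were counted from lists in combination against anti-B7-H3, where 19.8% of all genes tested rose and 19.1% fell. Of 7 VEGF ligands and coreceptors 0 rose and 3 fell, among them the coreceptor Nrp2 (-0.31 ± 0.06) and the lymphatic ligand Vegfc (-0.49 ± 0.19, edgeR adjusted p = 0.0394). Of 8 leukocyte adhesion genes tested 0 rose and 5 fell, with log2 differences of -1.08 ± 0.27 for Selp, the P-selectin of endothelium and platelets, -1.03 ± 0.37 for Icam2 and -0.83 ± 0.11 for Icam1. Of 11 endothelial transcription factors 0 rose and 6 fell, Hhex by 1.63 ± 0.40, Fli1 by 1.10 ± 0.14 and Klf2 by 1.0 ± 0.18 on the log2 scale. Fli1 and Icam1 are also leukocyte genes. Of 15 barrier and surface genes tested 1 rose, the junction protein gene Tjp1 (0.63 ± 0.05), and 4 fell, including Ecscr (-0.73 ± 0.24) and Calcrl, a receptor for adrenomedullin (-0.43 ± 0.14). The lymphatic markers tested, Pdpn and Lyve1, both fell, by 1.0 ± 0.22 and 0.61 ± 0.15 on the log2 scale, and both are also known in other cells of tumours. Prox1 and Ccl21a had too few reads to be tested. Prox1 had 0, 1 and 0 reads in anti-B7-H3 and 2, 0 and 2 in combination libraries. Ccl21a had 0, 0 and 0 against 0, 0 and 4. The lymphatic receptor Flt4 gave no call, as stated above.

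Of 11 basement membrane genes 8 rose and 0 fell, where 19.8% of all genes rose and 19.1% fell, Col18a1 by 1.25 ± 0.05, Lama5 by 0.76 ± 0.05 and Lamb1 by 0.54 ± 0.04 on the log2 scale, with a median of 0.38. Of 8 Notch pathway genes 3 rose, 0 fell and 5 were not called, the ligand gene Jag1 by 0.35 ± 0.07, Notch4 by 0.27 ± 0.08 and Notch1 by 0.26 ± 0.05. Another list held the ligand genes Angpt1, Angptl2, Apela, Pdgfa, Pdgfb, Pdgfd, Tgfb1 and Bmp4. Of 5 of these tested 2 rose, the angiopoietin-like Angptl2 (0.41 ± 0.06) and Pdgfa (0.30 ± 0.09), and 1 fell, the TGF-beta ligand Tgfb1 (-0.59 ± 0.06). Of 12 further smooth muscle and pericyte genes 3 rose and 2 fell. Des, the desmin of all muscle, rose by 1.81 ± 0.18 in the comparison where skeletal muscle markers also rose. Anpep, an aminopeptidase of pericytes and myeloid cells, fell by 1.12 ± 0.06.

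Against anti-PD1, where 23.1% of all genes tested rose and 23.4% fell, the same lists gave other counts. Vcam1 and Icam1, which hold leukocytes to endothelium, rose by 1.94 ± 0.09 and 1.33 ± 0.17 on the log2 scale in the combination, and Sele, the endothelial selectin induced in inflammation, rose by 1.65 ± 0.25, on 162 reads against 37. Of the VEGF list 5 of 7 rose, among them Nrp2 (0.75 ± 0.07) and Pgf (0.89 ± 0.35, on 67 reads against 26). Dll4, the Notch ligand of tip cells, rose by 0.96 ± 0.18, while Hey1, a Notch target, fell by 1.38 ± 0.39 on 27 reads against 51. In the leukocyte adhesion list 10 of 10 genes were near background in isotype control and 6 in anti-PD1 libraries, and in the basement membrane list 1 of 11 and 0. Against isotype control Icam1 and Vcam1 rose with anti-B7-H3, by 2.52 ± 0.23 and 2.30 ± 0.12, and of the 11 basement membrane genes 2 rose, Nid1 (0.97 ± 0.06) and Sparc (0.86 ± 0.05), and 5 fell, among them Col18a1 by 0.94 ± 0.05. Of all genes tested there 30.8% rose and 33.3% fell. Values in this paragraph are with the background left in.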

How the data were processed

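RNA of whole tumours was measured in 12 libraries, 3 in each of 4 antibody groups. Per the labels' protocols, ribosomal RNA was depleted before libraries were made with an Illumina TruSeq total RNA kit. FastQC 0.11.8 and the build GRCm38 are named in the submitters' processing notes. The program that assigned reads, and its setting for strand, are not given in the sources used here. The authors deposited an estimated count, a TPM value, a length and an effective length per transcript, per the file headers. The TPM values that the authors deposited were not used. Deposited estimated counts were summed over 22195 genes with GENCODE names (57473 of 58083 transcripts matched) and rounded. The deposited effective length served only in an alternative. The deposited lengths are mostly coding lengths, since 87.3% are multiples of 3.

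edgeR 4.0.16 in R 4.3.3 fitted all 12 libraries with 1 mean for each group, TMM scaling, its default expression filter and its robust quasi-likelihood F test, and 13478 genes were tested. Calls are genes with an adjusted p (Benjamini-Hochberg) under 0.05. The SE is the log2 difference divided by the square root of F. Calls of combination against anti-B7-H3 were checked on simulated data with a common profile changed only in the combination. Differences in background between groups were not simulated, so calls against isotype control or anti-PD1 were not checked in that way. Background reads of a gene are its coding length times the reads per kilobase of 1489 chemoreceptor genes in that library, and near background means under 3 times that. The 12 satellite-like genes each took over 0.5% of isotype control reads and over 100 times their anti-B7-H3 share, limits set after the data were seen. Counting intervals are at 95% and cover counting error only. Promoters are RefSeq windows. Only exact copies of CAGGAAG and of the CArG pattern given above were searched.

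The median chi-square per gene was 0.547 to 0.947 between libraries of 1 group, against 0.455 from counting and 2.11 to 12.3 between groups. It was closest to counting in anti-B7-H3 (0.547 to 0.56) and combination libraries (0.548 to 0.577). All 12 were kept. These values do not tell whether libraries of 1 group come from separate tumours. Members and lists were chosen with earlier results of these data known. Values by library are given for the 6 endothelial and 4 mural genes of highest mean log2 CPM and for members called against most of their list. Angpt2, Tagln, Rgs5 and Flt4 were added after their values were seen. Of context lists, up to 3 called genes per direction are named. Alternatives were DESeq2 1.42.0 size factors and its Wald test (with a local fit of the spread), no filter, the compared groups only, a replicate block, satellite-like genes left out, background subtracted, scaling over genes well above background, an effective-length offset, and each library left out. Where background was subtracted, the filter and the TMM factors were estimated anew on the subtracted counts.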

Additional observations from a re-analysis of the deposited data

Results flagged for a closer look

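The results here are those where the effect of 1 antibody differed with the other present, by the interaction term of the edgeR fit (combination minus anti-B7-H3 minus anti-PD1 plus isotype control, log2 scale, Benjamini-Hochberg adjusted p over 13478 genes). Positive terms were 2.0 ± 0.39 (SE, adjusted p = 2.1e-05) for Flt4, 1.53 ± 0.31 (adjusted p = 4.86e-05) for Robo4, 0.98 ± 0.29 (adjusted p = 0.00485) for Angpt2 and 0.61 ± 0.22 (adjusted p = 0.0225) for Ptprb. These 4 endothelial genes were near background in isotype control and were not called after background subtraction, where Flt4, Robo4 and Ptprb changed sign. Among mural genes the term was 0.95 ± 0.20 (adjusted p = 0.000249) for Notch3, which was not called after subtraction either, and 0.87 ± 0.07 (adjusted p = 1.26e-16) for Mcam, which was. Negative terms were -0.35 ± 0.14 (adjusted p = 0.0375) for Eng, lost after subtraction and without isotype control replicate 2 or 3 or anti-PD1 replicate 2, -0.74 ± 0.12 (adjusted p = 1.53e-06) for Pdgfrb, -0.74 ± 0.19 (adjusted p = 0.00144) for Pecam1, -0.86 ± 0.22 (adjusted p = 0.000863) for Plvap, -1.09 ± 0.29 (adjusted p = 0.00183) for Tagln and -1.70 ± 0.17 (adjusted p = 8.52e-13) for Acta2. The last 5 of these were called after subtraction as well, though Pdgfrb, Pecam1, Plvap and Tagln were also near background in isotype control. The Ptprb term was lost without any 1 of 6 libraries.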

How the results depend on the processing

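In the combination against anti-B7-H3, Pecam1, Cd34, Plvap, Flt1, Vwf, Eng, Mcam, Cspg4, Pdgfrb and Myh11 were called in the same direction in every alternative run. Other counts moved; the cause was not tested. With background subtracted, endothelial members called higher and lower were 16 and 1 (anti-B7-H3), 4 and 1 (anti-PD1) and 11 and 2 (combination) against isotype control, 10 and 0 for combination against anti-PD1, and 0 and 6 for the interaction. Mural counts then were 2 lower (anti-B7-H3), 2 higher and 1 lower (anti-PD1), 2 lower against anti-B7-H3 and 2 lower against anti-PD1. All genes then had 12.6% higher and 17% lower in the interaction, 14.8% lower against anti-B7-H3 and 17% lower against anti-PD1. The shares against isotype control are given above. Subtraction, with scaling estimated anew, turned the sign of fitted log2 values, many over isotype control reads near 0 and so no folds. Against isotype control they became, for anti-B7-H3 first, then anti-PD1, then the combination, 8.33, 8.02 and 8.28 (Kdr), 3.04, 1.54 and 3.12 (Flt4), 7.45, 3.77 and 6.80 (Tek), 1.95, 1.31 and 1.83 (Tie1), 1.10, 0.43 and 1.39 (Robo4), 0.56, 0.032 and 0.11 (Ptprb), 7.65, 7.97 and 7.16 (Nos3), 8.25, 6.80 and 7.87 (Mmrn2) and 4.97, 2.68 and 4.17 (Myh11). For anti-B7-H3 Cldn5 became 5.85 and Notch3 0.040, for anti-PD1 Vwf 0.53 and Cspg4 -0.11, and for the combination Vwf 0.59. Against anti-PD1 they became 1.58 (Flt4), 3.03 (Tek), 0.077 (Ptprb) and 1.49 (Myh11), and in the interaction -8.07 (Kdr), -1.46 (Flt4), -0.14 (Robo4), -0.49 (Ptprb), -7.18 (Mmrn2) and -3.48 (Myh11).

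Scaling over genes well above background moved the median of all genes by -0.37, -0.24 and -0.34 against isotype control. It gave Vwf -0.039 for anti-B7-H3. For anti-PD1 it gave 2 mural genes higher, where all genes had 8.28%, and for the combination 3 endothelial genes higher, where all genes had 14.8%. Against anti-PD1 it gave 2 mural genes lower, where all genes had 30.4%. In the interaction 8 endothelial and 4 mural genes were higher, where all genes had 26.9%. Without a filter the median of all genes against isotype control was -0.78, -0.48 and -0.69. The combination then had 8 endothelial genes higher than isotype control, where all genes had 26.1%, and Vwf, Cspg4 and Mcam there became 0.27, 0.26 and 0.014. With satellite-like genes left out Vwf and Cspg4 there became 0.24 and 0.22, and anti-PD1 had 1 endothelial gene higher, where all genes had 24.3%. DESeq2's Wald test gave 2 mural genes lower against anti-B7-H3 and 2 against anti-PD1, where all genes had 17.9% and 22.8% lower. The compared groups alone gave 1 endothelial gene higher against anti-B7-H3, where all genes had 21.8%. They gave 2 mural genes lower against anti-PD1, and the effective-length offset also 2, where all genes had 24.3% in both. Without Cspg4 and Mcam, chosen after seeing the data, mural counts were 2 lower for anti-B7-H3 against isotype control, 0 higher against anti-B7-H3, 0 lower against anti-PD1 and 1 higher in the interaction. The ratio of mural to endothelial reads in isotype control, anti-B7-H3, anti-PD1 and combination was 4.25, 1.29, 3.39 and 2.02 with background subtracted, 3.03, 1.48, 3.82 and 2.38 over members well above background, 1.20, 0.953, 1.59 and 1.34 without Vwf and Cspg4, and 0.354, 0.519, 0.494 and 0.555 without Cspg4 and Mcam.

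Leaving out 1 library, endothelial genes called higher numbered 5 to 8 for anti-B7-H3 (lowest without isotype control replicate 3), 3 to 6 for the combination (3 without isotype control replicate 1 or 3) and 0 to 1 against anti-B7-H3 (1, Angpt2, without combination replicate 2). Those called lower numbered 8 to 14 for anti-PD1 (8 without isotype control replicate 2) and 2 to 4 against anti-PD1 (2 without combination replicate 2). Mural genes called lower against anti-B7-H3 numbered 2 to 4 (2 without anti-B7-H3 replicate 3 or combination replicate 2), and those higher in the interaction 2 to 4 (4 without isotype control replicate 2). Same-numbered libraries were treated as unpaired, since the labels state no pairing. Their deviations correlated at -0.0632 to 0.263 (median 0.0426), over 0.1 in 6 of 18 pairs. Libraries of different number and group correlated at -0.286 to 0.285 (median -0.0185), over 0.1 in 3 of 36 pairs. Whether the numbers pair libraries stays undecided. The replicate block gave 7 endothelial genes lower and 3 mural genes lower against anti-B7-H3, losing Tagln, where all genes had 18.8% lower. Members under 50 reads in a group, such as Apln, Cnn1, Erg and Sox17, are limited by depth.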
